A study of Ovis aries with 18 samples.

Results

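Predicted small RNA loci whose seed is that of a bovine miRNA numbered 2000 or more were described in lumenal vesicles and endometrium of the ewe. They were all rows without a sheep miRNA name that the deposited tables list with a bovine same-seed miRNA of such a number, with the row 1_3033 left out. The vesicle table held 75 such rows out of 495. Rows with identical values were counted once, which left 55 loci. The endometrium table held 107 such rows out of 761, 74 of them also in the vesicle table, 33 in the endometrium table alone and 1 in the vesicle table alone. The seed names ran from miR-2284 to miR-7864, and the nearest bovine seed numbers outside the group were 1839 in the vesicle table and 1843 in the endometrium table.

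A mature miRNA guides a silencing complex to messenger RNAs, and its seed, bases 2 to 8 from the 5′ end, contributes most of the pairing. miRNAs are numbered in the order in which they are registered, so the high bovine numbers are late entries, many of them found by sequencing of cattle tissues. The miR-2284 and miR-2285 group is a large family of cattle miRNAs with many closely related copies across the genome. A row "with the seed of" such a miRNA shares the seed alone and is not shown to be that miRNA.

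The ewes (Ovis aries) were ovariectomized and were given progesterone (P4) at 50 mg a day over 14 days, without or with RU486, an antagonist of the progesterone receptor, at 50 mg a day from day 8 to day 14 (P4+RU486). Ovaries were therefore absent in both groups, and both received P4 throughout. Small RNA was sequenced from vesicles of the uterine flush (4 libraries per treatment) and from endometrium dissected from the uterus (5 libraries per treatment), and different ewes received each treatment. Neither breed nor age is given in the labels.

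Vesicle values are the authors' normalized CPM (reads scaled to a common library size), from which whole reads could be recovered. The listed rows held 97202 to 1062646 reads per library, so 1 read was worth 1.10 normalized CPM in the deepest library (P03) and 10.4 in R04. P01 (97202 reads), P04 (97593) and R04 (101186) were the shallowest. Column names give the treatment's initial but no ewe, and the libraries are named here by their columns, P01 to P04 for P4 and R01 to R04 for P4+RU486. Marker miRNAs, matched by name or seed, held 0.932% to 2.59% of the reads for epithelium, 0.992% to 1.73% for smooth muscle and 0.164% to 1.82% for leukocytes, with no row for the endothelial miR-126. The leukocyte list stood highest in P01. For endometrium only the authors' fold changes and adjusted p-values were used, since the names of its library columns match no label.

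In vesicles the loci with high-numbered bovine seeds were many and scarce, and 1 of them carried most of their reads. Together they took 16481 of 2708760 listed reads. The row 7_32409, with the seed of miR-2284x, held 11496 of these reads, or 69.8%, and ranked 35 of 495 rows by mean value. The next locus, X_35830 with the miR-6119-5p seed, was 6.24 times less abundant, and the 3 most abundant loci together held 87.2% of the group's reads. The 45 loci below the 10 most abundant held 5.07%, and none of them averaged more than 39.3 normalized CPM.

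**Figure D1:**
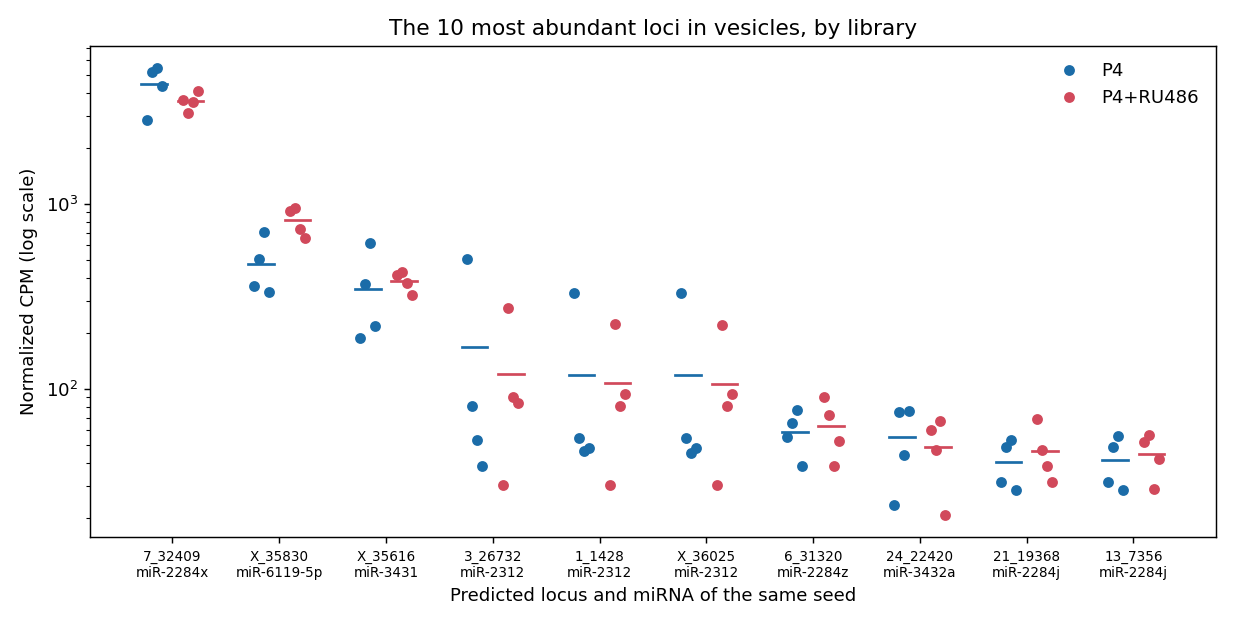
Normalized CPM of the 10 most abundant loci in each vesicle library (points, log axis), with the group mean as a short line, P4 in blue and P4+RU486 in red. The row 7_32409 lies between 2828 and 5414 in every library, and the highest value of the other 9 loci is 955.

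Set beside the other rows of the same table, the group stood between predicted rows with another seed name and those with no seed name. Of its 55 loci, 22 (40.0%) averaged at least 10 normalized CPM and the median locus averaged 5.21. Sheep-named rows, with identical rows counted once, reached that mean in 72.0% of cases, with a median of 305. Predicted rows with another seed name did so in 58.5% (median 17.6), and predicted rows with no seed name in 32.8% (median 4.28). These shares were not tested against each other. Rows with an identical partner were frequent in the group (31 of 75 rows, 41.3%), as among rows with no seed name (42.7%), against 23.4% of predicted rows with another seed name and 11.3% of sheep-named rows. In the same order, with every row counted, the median row held 7, 4, 30 and 291.5 reads. Rows of very few reads can have equal values without sharing reads, and the part of this was not tested.

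Whether a scarce locus was seen depended on the library. In P03, 47 of the 55 loci had at least 1 read, against 43 in P02, 38 in R02, 36 in R01 and 32 in both P01 and R03. The 2 remaining libraries had the fewest, 27 in R04 and 25 in P04. Of the 24 loci with a read in P03 and none in P04, 20 had a value in P03 below what 1 read was worth in P04. Only 17 loci had a read in all 8 libraries, 5 had one in a single library, and 24 had at most 10 reads over all 8. The largest P03 value of a locus without a read in P04 was 16.5, above the 9.54 that 1 read was worth in P04. The miR-2392-seed row was at 94.3 in the shallow P01 and at 0 in P03, the deepest library. A count of 0 therefore did not show by itself that a locus was absent or too scarce for that depth. The upper limit for a count of 0, 3 reads, corresponds to 3.30 to 31.3 normalized CPM.

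As a share of the listed reads, the group was at 0.677% in P01, 0.638% in P02, 0.636% in P03 and 0.583% in P04. In P4+RU486 it was at 0.540% in R01, 0.565% in R02, 0.537% in R03 and 0.556% in R04. By this share all 4 P4 libraries lay above all 4 P4+RU486 libraries, with means of 0.634% ± 0.0386 (SD, n = 4) and 0.550% ± 0.0134 (SD, n = 4). With every row counted, identical ones included, the ranges were 0.592% to 0.723% and 0.549% to 0.592%, the lowest P4 library just above the highest P4+RU486 library. These are shares of recovered reads, not of the normalized CPM used for single loci. In that unit 1 read was worth 7.86 in P01 (97202 listed reads) and 10.4 in R04 (101186). The group held 658 reads in P01 and 563 in R04, so its normalized sum was lower in P01 than in R04. On that scale the treatments thus overlapped, as they did for 7_32409, with most of the group's reads. The loci were chosen with earlier results of these data known, so the sum was not tested. A marker list for liver or plasma separated the treatments in the same order, at 0.0143% to 0.0576% of the listed reads in P4 and 0.00988% to 0.0131% in P4+RU486. Of its 4 names, 2 had a row (miR-194 and miR-885), and the liver marker miR-122 and miR-192 had none. The erythroid list, from 1 row, overlapped at 0.0262% to 0.791% and 0.175% to 0.553%, and so did the stromal list at 0.00715% to 0.111% and 0.0128% to 0.0604%. The part of any of these in the share was not tested. Without 7_32409 the shares overlapped, at 0.118% to 0.307% in P4 and 0.168% to 0.262% in P4+RU486.

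**Figure D2:**
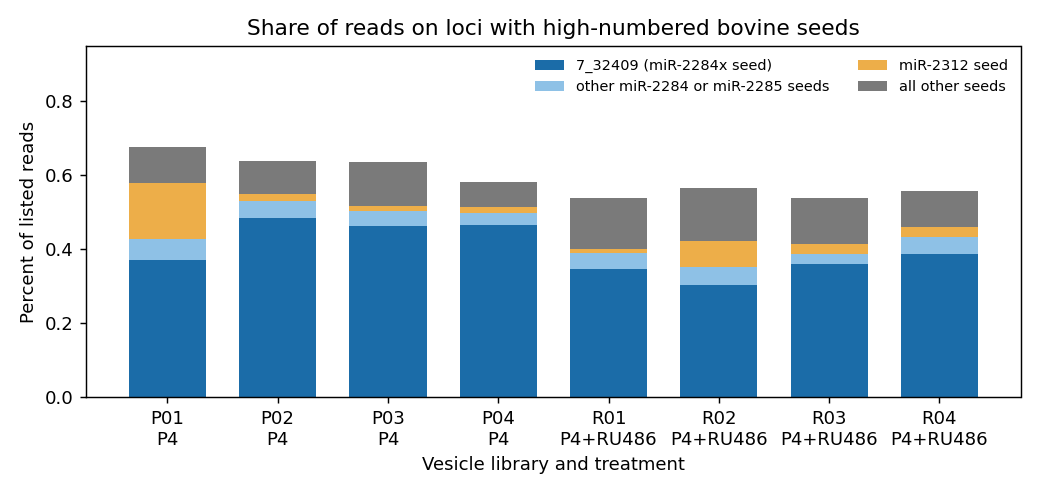
Percent of listed reads in each vesicle library on 7_32409, on the other loci with miR-2284 or miR-2285 seeds, on miR-2312-seed loci and on all other loci of the group, as stacked bars with identical rows counted once. The totals run from 0.583% to 0.677% in P4 and from 0.537% to 0.565% in P4+RU486, and the miR-2312 part is largest in P01 (0.152%) and R02 (0.0709%).

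The row 7_32409 has the seed of miR-2284x, of the large bovine family. It was at 2828 normalized CPM in P01, 5193 in P02, 5414 in P03 and 4331 in P04, and at 3662 in R01, 3122 in R02, 3548 in R03 and 4103 in R04. The groups overlapped: 3 P4 libraries lay above every P4+RU486 library, and P01 lay below all 4. P4 libraries averaged 4442 ± 1173 (SD, n = 4), and P4+RU486 libraries 3609 ± 403 (SD, n = 4). The log2 difference, P4+RU486 minus P4 on the log2(value + 1) scale, was -0.26 (SE 0.26, 95% interval -0.82 to 0.30, limma adjusted p = 0.729). Leaving out 1 library moved it between -0.46 without P01 (limma adjusted p = 0.315) and -0.15 without P03, and it was -0.17 without P02. Without P01, P04 and R04 together it was -0.63. As a share of the listed reads the row was at 0.370%, 0.485%, 0.464% and 0.465% in P01 to P04 and at 0.347%, 0.304%, 0.361% and 0.388% in R01 to R04.

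The same seed name did not go with a like level. The other row with the miR-2284x seed, 2_16765, averaged 6.05 normalized CPM from 15 reads in all, so 7_32409 was 665 times as abundant. Apart from 7_32409, the rows with miR-2284 and miR-2285 seeds together held 0.0338% to 0.0576% of the reads in P4 and 0.0273% to 0.0484% in P4+RU486, and these ranges overlapped. The family counted 46 rows (35 loci), 14 of them with a mean of at least 10. The miR-2284j seed was listed for 13 rows with means of 0.743 to 43.4, the miR-2284g seed for 10 rows with means up to 33.1, and the miR-2285o seed for 10 rows, none with a mean above 2.26.

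Many of these copies could not be told apart in the counts. The 75 rows included 11 sets of identical rows, 7 of them with a single seed name. The 5 rows 19_14228, 3_24603, 3_26964, 7_32183 and X_35845, all with the miR-2285o seed, each held the same 6 reads in the same libraries, and 10_4104, 18_13886 and 7_32878, of the same seed, each held the same 7. The 4 sets of mixed seed names held 1 or 2 reads per row, where equal values need not mean shared reads. Other pairs were nearly identical. 1_1428 and X_36025, with the miR-2312 seed, differed by 2 of the 444 reads summed over both rows (0.450%). 15_10665 and X_35779 differed by 2 reads, and 21_19368 and 13_7356 by 13 reads over 8 libraries, both pairs with the miR-2284j seed. No label or header says how the authors split reads between near-identical loci, so each of these rows is uncertain as a separate locus.

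The identifiers of the 75 vesicle rows begin with 28 different prefixes. Of these, 26 match sheep chromosome names in RefSeq's gene table of another assembly (ARS-UI_Ramb_v3.0), and the tables themselves do not say what the prefix means. The prefix X stood before 13 of the 75 rows (17.3%) and before 35 of the 340 other predicted rows (10.3%). Of the 3 most abundant loci, X_35830 and X_35616 carry it.

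X_35830, with the seed of miR-6119-5p, had the smallest p of the group in the comparison of treatments. It was at 361 normalized CPM in P01, 502 in P02, 703 in P03 and 334 in P04, and at 914 in R01, 955 in R02, 736 in R03 and 658 in R04. The groups overlapped by 1 library, since P03 lay above R04, and 3 P4+RU486 libraries lay above every P4 library. P4 libraries averaged 475 ± 169 (SD, n = 4), and P4+RU486 libraries 815.8 ± 141.8 (SD, n = 4), 1.72 times as high. The log2 difference of 0.83 (SE 0.31, 95% interval 0.15 to 1.51, unadjusted p = 0.0213) did not pass the adjustment over all 229 rows tested with limma (adjusted p = 0.285). It ranged from 0.68 to 1.04 with 1 library left out and was 0.54 without P01, P04 and R04 together (limma adjusted p = 0.363). It passed in the fit with the log2 library total as a covariate (0.95, limma adjusted p = 0.0376). DESeq2 on the recovered reads gave an adjusted p of 0.0776, and edgeR's quasi-likelihood test gave 0.265.

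X_35616, with the seed of miR-3431, was at 189, 371, 613 and 219 normalized CPM in P01 to P04 and at 414, 428.9, 373 and 324 in R01 to R04. The P4 libraries held both the lowest and the highest value, so the groups overlapped widely. Its log2 difference was 0.30 (SE 0.38, limma adjusted p = 0.814), and it was -0.24 without the 3 shallowest libraries. With 1 library left out it ran from 0.055 without P01 to 0.62 without P03.

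No locus of the group passed the limma test in vesicles (0 of the 22 tested, where 0.437% of all 229 rows, 1 row, did). In edgeR's quasi-likelihood test 0 of 22 passed as well (0.437% of all rows). DESeq2 gave an adjusted p to 6 of the 22 and to 140 rows in all, the scarcer rows being left out by its filter or as outliers, and called 0 of those 6 (3.57% of the 140). At an unadjusted limma p under 0.05 stood 1 of the 22, against 14.4% of all rows. The treatments were separated without overlap in 0 of the 22, against 10% of all rows. The estimates were split, 12 above 0 and 10 below, with a median of 0.05. Over all rows tested 51.5% were above 0, with a median of 0.04. The 33 other loci, with at most 29 reads each, were below the mean of 10 and were not tested in that fit.

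**Figure D3:**
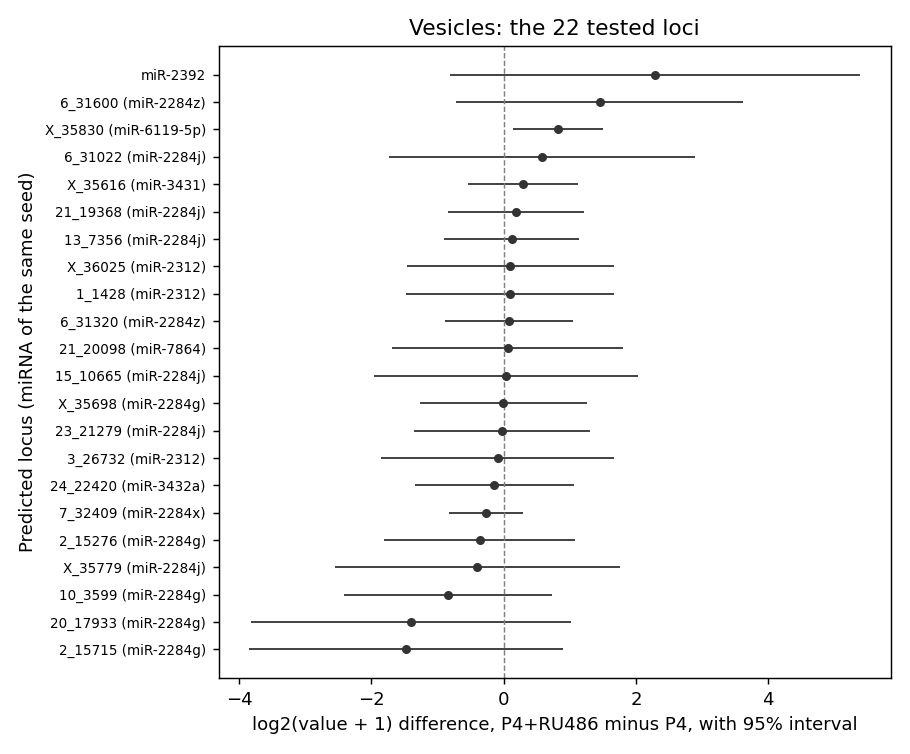
Difference between treatments, P4+RU486 minus P4 on the log2(value + 1) scale, for the 22 tested loci, each point with its 95% limma interval and a dashed line at 0. The interval of X_35830 (0.15 to 1.51) is the only 1 of the 22 that leaves out 0, before adjustment.

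The intervals of most loci were wide. The median SE over the 22 loci was 0.72 on the log2 scale, against 0.51 over all 229 rows. For 7_32409 the interval left out a rise above 0.30 and a fall below -0.82, whereas for 2_15715 it ran from -3.85 to 0.89.

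Besides X_35830 and X_35616, the loci with the smallest p among those with a positive estimate were the row with the miR-2392 seed and 6_31600 with the miR-2284z seed. The miR-2392-seed row, the one present in the vesicle table alone, held 12 reads in P01, 1 in P02 and 0 in P03 and P04, and 15, 6, 2 and 1 in R01 to R04. It was at 94.3, 1.87, 0 and 0 normalized CPM in P4 and at 64.7, 18.8, 9.56 and 10.4 in P4+RU486. The group means were thus nearly equal, 24.0 and 25.9, while the log2 difference was 2.29 (SE 1.42, limma adjusted p = 0.499), 3.81 without P01 (limma adjusted p = 0.179), and the fold in the authors' deposited table was -13.97 (adjusted p = 0.18), where a negative sign is higher in P4+RU486. edgeR on the recovered reads gave 0.52 and DESeq2 0.033, and the limma value was 1.62 without P03 or P04. 6_31600 was at 7.86, 13.1, 16.5 and 0 in P4 and at 25.9, 18.8, 9.56 and 20.9 in P4+RU486, from 39 reads in all, and its estimate was 1.45 (SE 0.996, limma adjusted p = 0.561). It was 0.53 without P04, 0.71 with edgeR on the recovered reads and 0.18 without P01, P04 and R04.

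Among negative estimates the smallest p-values were those of 2_15715, 20_17933 and 10_3599, all with the miR-2284g seed, followed by 7_32409. 2_15715 was at 55.0, 18.7, 18.7 and 9.54 normalized CPM in P4 and at 21.6, 28.2, 4.78 and 0 in P4+RU486. 20_17933 was nearly its copy, with 6 reads of difference over the 106 reads of both rows. R04 held no read of either row, and the log2 differences of -1.48 (SE 1.09) and -1.40 (SE 1.112) went with means that were 1.87 and 1.62 times as high in P4 (limma adjusted p = 0.602 and 0.664). Without R04 they were -0.49 and -0.36, and without R02 they were -2.11 and -2.08. edgeR on the recovered reads gave -0.65 and -0.48. 10_3599 was at 7.86, 16.9, 17.6 and 28.6 in P4 and at 8.63, 6.26, 9.56 and 10.4 in P4+RU486, with P01 the only P4 library inside the P4+RU486 range (log2 difference -0.84, SE 0.72, limma adjusted p = 0.704). With 1 library left out, the difference of 10_3599 ran from -1.16 without P01 to -0.58 without P04. The other tested miR-2284g rows, 2_15276 and X_35698, differed by -0.36 (SE 0.66) and -0.01 (SE 0.58).

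The loci with the miR-2312 seed varied more between libraries than between treatment means. 3_26732 was at 503 normalized CPM in P01, 80.5 in P02, 52.8 in P03 and 38.2 in P04, and at 30.2 in R01, 276 in R02, 90.9 in R03 and 83.5 in R04. 1_1428 was at 330, 54.3, 46.2 and 47.7 in P4 and at 30.2, 225, 81.3 and 94.0 in P4+RU486, and X_36025 followed it within 1 read in every library. P01 and R02 were thus the 2 highest libraries in each, 1 from each treatment, and R02 was 2.37 to 3.03 times the third library. Their log2 differences between treatments were -0.09 (SE 0.81), 0.10 (SE 0.72) and 0.10 (SE 0.72), and that of 3_26732 was 0.70 without P01. Apart from a row identical to X_36025, the remaining miR-2312-seed rows held at most 9 reads each.

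**Figure D4:**
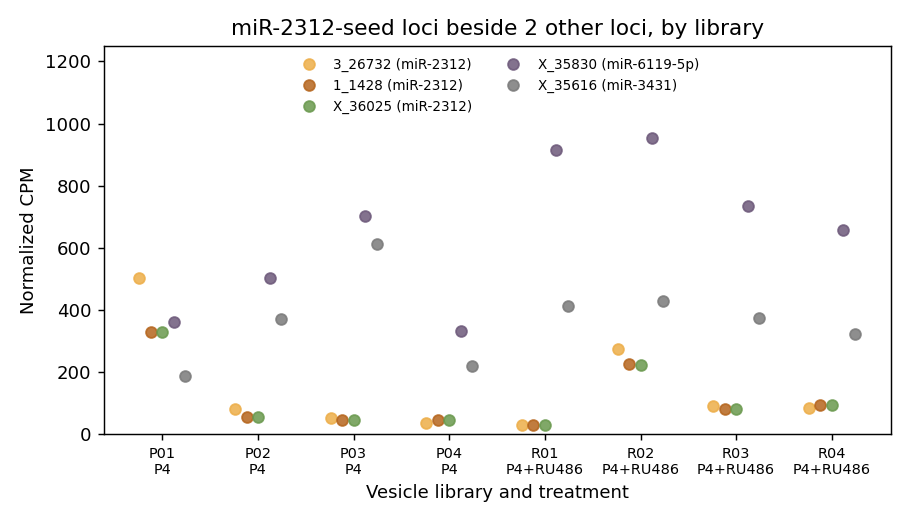
Normalized CPM of 3 miR-2312-seed loci and of X_35830 and X_35616 in each vesicle library, points shifted sideways within a library so that none hides another. The miR-2312-seed loci are highest in P01 (330 to 503) and R02 (222 to 276) and lie below 100 in the other 6 libraries.

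The same library pattern was found in rows outside the group, a search made after the values were seen. Of the 229 rows with a mean of at least 10, 14 (6.11%) had P01 and R02 as their 2 highest libraries, and in 8 of them the second library was at least 2 times the third. Those 8 were the 4 miR-2312-seed rows (one identical to X_36025) and 4 predicted rows with no seed name, 17_12449, 1_1825, 4_27931 and 3_26948. The 4 unnamed-seed rows were all at 330 in P01, the value of 1_1428, and at 191 to 200.4 in R02. The marker lists are shares of the listed reads, not normalized CPM. Among them multiciliated cells (1.863% and 1.861%) and smooth muscle (1.73% and 1.45%) had P01 and R02 as their highest libraries. In both the third library was close to R02, R04 at 1.74% for multiciliated cells and P03 at 1.42% for smooth muscle. In normalized CPM, P01 lay below R02 and R04 for multiciliated cells and below R02 and P03 for smooth muscle. The leukocyte list was at 1.82% in P01 and 0.438% in R02, with P04 (0.474%) above R02. The epithelial list was lowest in P01 (0.932%) and highest in P03 (2.59%). Whether these cells or shared reads have a part in the pattern was not tested.

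The other loci among the 10 most abundant had estimates near 0 with wide intervals. 6_31320, with the miR-2284z seed, was at 55.0, 65.5, 76.9 and 38.2 normalized CPM in P4 and at 90.6, 72.0, 38.3 and 52.2 in P4+RU486 (log2 difference 0.07, 95% interval -0.89 to 1.04). 24_22420, with the miR-3432a seed, was at 23.6, 74.9, 44.0 and 76.3 and at 60.4, 47.0, 66.9 and 20.9 (-0.14, interval -1.34 to 1.06). 21_19368 was at 31.4, 48.7, 52.8 and 28.6 and at 69.0, 47.0, 38.3 and 31.3 (0.18, interval -0.84 to 1.21). Its near copy 13_7356 was at 31.4, 48.7, 56.0 and 28.6 and at 51.8, 56.4, 28.7 and 41.8 (0.12, interval -0.90 to 1.15). Their groups overlapped in each case, and the sign of these 4 estimates turned when single libraries were left out.

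Loci with large folds in the authors' deposited table for vesicles rested on few reads. In that table none of the 55 loci had an adjusted p under 0.05 (1.82% of all 495 rows did), and the lowest was 0.18. The authors' fold was at least 5 in size for 6 loci, which held 4 to 37 reads over all libraries, and 5 of the 6 had no read in one of the treatments. An example chosen after its values were seen is X_36579, with the miR-2483-5p seed, for which the authors' deposited table gives 11.56 (adjusted p = 0.48). It held 3, 1, 4 and 0 reads in P01 to P04 and 0 in every P4+RU486 library. In all, 8 loci had no read in P4+RU486 and 2 had none in P4, none of them with more than 8 reads. The mean depth was higher in P4, at 457308 listed reads against 219882 in P4+RU486. P03 (1062646) and P02 (571791) were the deepest, while P01 (97202) and P04 (97593) lay below every P4+RU486 library. The split of 8 and 2 loci was not tested or set beside that of all rows, so no effect of treatment is read from it.

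In the endometrium the authors' deposited table called 2 of the 107 rows (2 of 93 with rows of equal seed name, fold and adjusted p counted once), against 1.18% of all 761 rows. 3_26521, with the seed of miR-7864, stood in the authors' deposited table at -5.36 (adjusted p = 0.00686). 5_29555, with the seed of miR-2312, stood in the authors' deposited table at 2.61 (adjusted p = 0.023). The file does not name the numerator, so which treatment was higher is not stated here, and fewer cells of a type in the tissue and less RNA per cell cannot be told apart.

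These 2 rows were scarce in vesicles or not listed for them. 3_26521 is among the 33 rows listed for endometrium alone. 5_29555 was listed for vesicles, with 0, 1, 6 and 1 reads in P01 to P04 and 0, 1, 0 and 0 in R01 to R04, that is 0, 1.87, 6.59 and 9.54 normalized CPM and 0, 3.13, 0 and 0. Its fold for vesicles in the authors' deposited table was 3.21 (adjusted p = 0.77), higher in P4, and it was too scarce for the limma test. A further row with the miR-7864 seed, 21_20098, was at 1.63 for endometrium in the authors' deposited table (adjusted p = 0.693). In P4 vesicles 21_20098 averaged 13.6 ± 12.01 (SD, n = 4) normalized CPM, and in P4+RU486 vesicles 12.1 ± 4.77 (SD, n = 4).

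The seed groups had folds of both signs in endometrium. In the authors' deposited table, 46 of the 93 were positive and 47 negative (47.8% of all 761 rows were positive), and the median size of the fold was 1.32, against 1.25 over all rows. Loci with miR-2284 or miR-2285 seeds were positive in 22 and negative in 33 cases, with no adjusted p below 0.244. Within them, miR-2284g seeds were negative in 6 of 9, miR-2284j seeds in 11 of 17 and miR-2285o seeds in 3 of 10. Of 12 loci with the miR-2312 seed 8 were positive, among them 3_26732 (1.69, adjusted p = 0.366) and 1_1428 (1.04, adjusted p = 0.985), both in the authors' deposited table. None of these splits was tested.

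**Figure D5:**
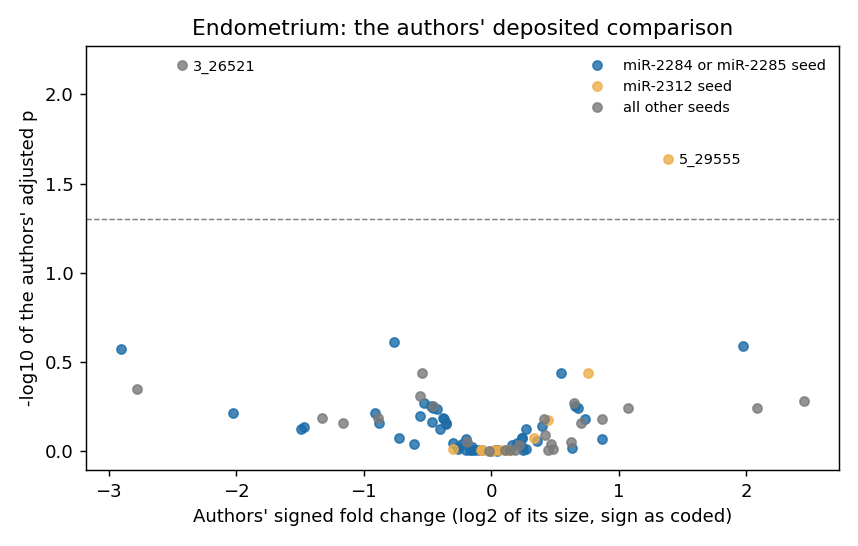
The authors' deposited comparison for endometrium: signed fold change (log2 of its size, sign as coded) against -log10 of the authors' adjusted p for the 93 loci, with a dashed line at an adjusted p of 0.05. Only 3_26521 (fold -5.36) and 5_29555 (fold 2.61) lie above the line.

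The 3 loci most abundant in vesicles had small folds in endometrium. The row 7_32409, in the authors' deposited table, was at -1.17 (adjusted p = 0.916) for endometrium and at 1.23 (adjusted p = 0.97) for vesicles. X_35830 was at -1.01 (adjusted p = 0.994) for endometrium in the authors' deposited table, and at -1.73 (adjusted p = 0.69) for vesicles. X_35616 was at -1.14 (adjusted p = 0.885) for endometrium in the authors' deposited table, and at -1.21 (adjusted p = 0.96) for vesicles. Sample titles of both kinds carry the same numbers, which the columns do not, and a difference in response between vesicles and tissue was not tested. The largest folds in endometrium, -7.50 for X_35997 with the miR-2284j seed and -6.87 for 18_13223 with the miR-2366 seed, had adjusted p-values of 0.269 and 0.448 in the authors' deposited table and no row for vesicles.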

How the data were processed

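Small RNA libraries of vesicles (8) and endometrium (10) were made with Illumina TruSeq kits, per the labels' protocols. The submitters' processing notes name cutadapt 1.11, the sheep build Oar_v3.1 and edgeR. No source used here gives the aligner, the prediction of loci or read filters. For vesicles the authors deposited a normalized signal per library. Dividing a column by its value of 1 read gave whole reads for 100% of values (tolerance 0.1 read). Each table also lists a signed fold and an adjusted p-value by the authors, per the file headers, with folds under 1 as minus the inverse. The 10 endometrium columns of values per library match no label and were not used, so the planned endometrium fit was not made and identical rows there were judged by seed name, fold and adjusted p.

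Treatments were compared with limma (3.58.1, trend, R 4.3.3) on log2(value + 1) over the 229 rows whose mean reached 10, Benjamini-Hochberg adjusted (threshold 0.05), after a test on simulated data. The plan named edgeR's count test (4.0.16) only if the table held counts; it and DESeq2 (1.42.0) were run on the recovered reads as alternatives, as were other pseudocounts, filters and scalings. Limits for counts of 0 cover counting error only, and without molecular identifiers reads are not independent molecules. The p-values set the difference between treatments against the spread between libraries, in which ewes and technical error are not separated. The loci named with all values are the 10 with the highest mean, the 4 with the smallest p in each direction, those with an authors' adjusted p under 0.05 and those whose groups do not overlap. The loci and lists were chosen with earlier results of these data known. The mature sequences of these loci were not used here.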

Additional observations from a re-analysis of the deposited data

Results flagged for a closer look

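Of 44 sets of 4 libraries examined among the named loci and the summed shares, 7 held a library far from the other 3. For independent, normally distributed values about 1 in 20 would. These sets include near copies, overlapping shares and counts near 0, so the 7 cannot be set against that rate. In P4, P01 was far above the others for 3_26732 (503 normalized CPM, next 80.5), 1_1428 (330, next 54.3) and X_36025 (330, next 54.3), which are near copies, and so for the miR-2312-seed share of the reads (0.152%, next 0.0178%). P01 was also far above the other P4 libraries for the miR-2392-seed row (94.3, next 1.87). In P4+RU486 that row was highest in R01 (64.7, next 18.8). 5_29555 stood apart in R02 (3.13, the others at 0), which is 1 read.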

How the results depend on the processing

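The 0 calls among these loci stayed at 0 under every alternative except the log2 library total as a covariate, which called 1 (X_35830, 0.95, limma adjusted p = 0.0376, the only named locus to gain a call). Over all rows that covariate called 6 and DESeq2 5, in place of 1, and 0 to 2 rows were called with 1 library left out. These were 0 without P04, R01, R03 or R04 and 2 without P02. Why was not tested. The P4+RU486 share of the reads moved to 0.566% with every row counted and was 0.544% to 0.554% with 1 library left out (0.619% to 0.651% in P4). Small estimates turned sign. Against 0.10, 1_1428 was at -0.049, -0.15 and -0.25 and X_36025 at -0.049, -0.16 and -0.26 with the covariate, edgeR and DESeq2. 6_31320 was at -0.0093 under library totals. With 1 library left out, ranges were -0.63 to 0.70 for 3_26732, -0.37 to 0.78 for 1_1428, -0.36 to 0.78 for X_36025, -0.12 to 0.29 for 6_31320, -0.49 to 0.21 for 24_22420, -0.025 to 0.35 for 21_19368 and -0.028 to 0.32 for 13_7356. Without P01, P04 and R04 together, chosen after seeing the data, X_35616 was at -0.24, 3_26732 at 0.48, 6_31320 at -0.17, 24_22420 at 0.0018, 21_19368 at -0.022 and 13_7356 at -0.25. The causes were not tested. No paired analysis was possible because the treatments were given to different ewes and the vesicle columns name none. The planned endometrium alternatives were not run, since no library column could be assigned. Depth limits most loci: 33 of 55 had a mean below 10.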
